A study of Mus musculus with 12 samples.

Results

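The genes described here are Zscan4a, Zscan4c, Zscan4d, Zscan4f, Zfp352, Tcstv1 and Tcstv3, which are known markers of the 2-cell-like state of mouse embryonic stem cells (ESC), and Gm13691, Gm13693 and Gm13698, which are copies of 1 tandem repeat. They are 10 of the 42450 genes in the count table and were picked by symbol, after results of these libraries had been seen. A row was found for 9 of the 10, and Zscan4a was not analysed here. Tcstv3 was too low to judge, with 0 counts in 10 of the 12 libraries and 1 and 3 counts in the others. The rows of Gm13691, Gm13693 and Gm13698 held the same values in every library and count as 1, so that 6 distinct rows were tested.

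PolyA+ RNA was measured in E14tg2a.4, a clonal male ESC line. It was grown on gelatin with the cytokine LIF, in serum-free medium before collection, and carries no engineered change in Srrm2. The siRNA, at 50 nM, was directed to Srrm2 (Srrm2-KD) or to Gl2, the firefly luciferase gene that mouse cells lack (Gl2-KD). Cells were collected after 24 h, or received a further dose and were collected at 72 h. The design holds 3 experiments with all 4 groups (Gl2-KD 24 h, Srrm2-KD 24 h, Gl2-KD 72 h and Srrm2-KD 72 h), 12 libraries in all. The time of culture and the additional transfection go together and cannot be told apart in the comparison of 72 h with 24 h.

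A small share of cells in an ESC culture passes at any time through the 2-cell-like state, in which genes of the early embryo are switched on for a short time. The transcription factor DUX sets it off, and Zscan4 genes, Zfp352, Tcstv genes and certain retroviral repeats are among those that it turns on. ZSCAN4 proteins are known for their part in telomere maintenance in ESC. The state ends by itself, and chromatin repressors keep most cells out of it. In RNA from a whole culture, fewer cells in this state and less RNA per such cell cannot be told apart.

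Zscan4c, Zscan4d and Zscan4f lie in 1 gene cluster on chromosome 7 (GRCm38), at 11005745 to 11010547 on the plus strand, 11161374 to 11166159 on the minus strand and 11397915 to 11402318 on the plus strand. Their promoters are printed because the 3 Zscan4 genes had their high and low values in the same libraries and are close copies of each other. Each line holds 300 bases from RefSeq (GRCm38.p6), running from 250 bases before the start of the transcript to 50 bases after it, 5′ to 3′ on the gene's strand. Capitals mark the TATA box motif TATAAA. The motifs searched were chosen after the sequences had been read.
Zscan4c, chr7:11005495-11005794, plus strand: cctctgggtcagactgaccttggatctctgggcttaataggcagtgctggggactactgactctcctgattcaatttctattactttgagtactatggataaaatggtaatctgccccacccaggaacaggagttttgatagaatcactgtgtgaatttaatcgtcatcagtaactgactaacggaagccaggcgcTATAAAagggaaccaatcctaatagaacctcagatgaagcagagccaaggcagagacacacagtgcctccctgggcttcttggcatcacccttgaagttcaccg
Zscan4d, chr7:11166099-11166398, minus strand: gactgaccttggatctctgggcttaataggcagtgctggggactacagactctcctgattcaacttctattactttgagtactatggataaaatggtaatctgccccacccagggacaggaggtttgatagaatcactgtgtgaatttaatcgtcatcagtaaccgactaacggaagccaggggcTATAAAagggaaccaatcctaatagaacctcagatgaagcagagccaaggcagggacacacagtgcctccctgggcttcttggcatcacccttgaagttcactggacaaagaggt
Zscan4f, chr7:11397665-11397964, plus strand: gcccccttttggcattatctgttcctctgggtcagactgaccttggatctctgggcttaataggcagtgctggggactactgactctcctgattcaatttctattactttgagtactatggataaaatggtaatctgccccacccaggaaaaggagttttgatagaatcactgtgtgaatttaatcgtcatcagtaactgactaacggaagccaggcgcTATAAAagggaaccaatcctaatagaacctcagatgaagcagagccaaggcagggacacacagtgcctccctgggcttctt
Zfp352, chr4:90218570-90218869, plus strand: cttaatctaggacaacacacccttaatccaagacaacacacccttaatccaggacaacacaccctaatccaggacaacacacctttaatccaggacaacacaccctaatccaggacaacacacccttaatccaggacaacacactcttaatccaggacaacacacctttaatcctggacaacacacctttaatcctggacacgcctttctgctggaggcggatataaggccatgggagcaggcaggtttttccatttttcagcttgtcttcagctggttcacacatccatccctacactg

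The Zscan4c and Zscan4f promoters held the same base at 99.3% of 277 aligned positions, and Zscan4c and Zscan4d at 97.2% of 289. The motif, searched on both strands, was found in each of the 3 Zscan4 promoters, at -54 in Zscan4c, -65 in Zscan4d and -31 in Zscan4f from the listed start, and in 4473 of the 32851 mouse promoters of the same length, or 13.6%. The aligned promoters are shifted by 11 bases between Zscan4c and Zscan4d and by 23 between Zscan4c and Zscan4f, the distances by which the listed starts differ. The Zfp352 promoter held no match and has another makeup, a short stretch repeated many times before the start. TGCACAC, which shares no overlap with the first motif, was searched on both strands as well, was in none of the 4 and in 4.40% of all promoters. These matches describe the letters only.

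Gm13691 belongs to a run of 7 genes on the plus strand of chromosome 2, from 83955693 to 83993045, in which neighbouring copies start 5810 bp apart. The order is Gm13698, Gm13693, Gm13695, Gm13696, Gm13694, Gm13697 and Gm13691. Each has a single-exon transcript of 2493 nt that begins with a start codon and ends with a stop codon, and the genes are annotated as protein coding in GENCODE. RefSeq calls them pseudogenes. The copies resemble Cwc22, a gene for a splicing factor that is part of the spliceosome, and Gm13691 shares 1547 of its 2463 distinct 31-base words, or 62.8%, with Cwc22 transcripts. The 2493-nt transcripts of the other 6 copies are identical, and that of Gm13695 differs by A1280T, counted from the first base of the transcript, with the Gm13691 base first. The stretch from base 1250 to 1310 is shown because it holds the base at which these transcripts differ. The differing base is in capitals.
Gm13691: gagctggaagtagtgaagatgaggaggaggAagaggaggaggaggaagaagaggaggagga
Gm13695: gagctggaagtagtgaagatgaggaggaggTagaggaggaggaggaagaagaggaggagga

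How much of a gene is its own sets how far its row can be read. Of the 31-base words of Zscan4c, 8.46% were in no other gene of the annotation, of Zscan4f 8.28% and of Zscan4d 35.0%. Zfp352 had 78.5%, Tcstv1 71.4% and Tcstv3 49.0%. Gm13691 had 0 of 2463 words to itself, and Gm13695 had 31. The values of a single Zscan4 gene are therefore uncertain, as the reads that several copies share were divided by the authors' estimation, and Gm13691 cannot be told apart from its copies. Sums over Zscan4b to Zscan4f and over the 7 copies, added after the data were seen, do not depend on the division among the rows summed, but still on reads shared with Zscan4a, Zscan4 pseudogenes or Cwc22.

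**Figure D1:**
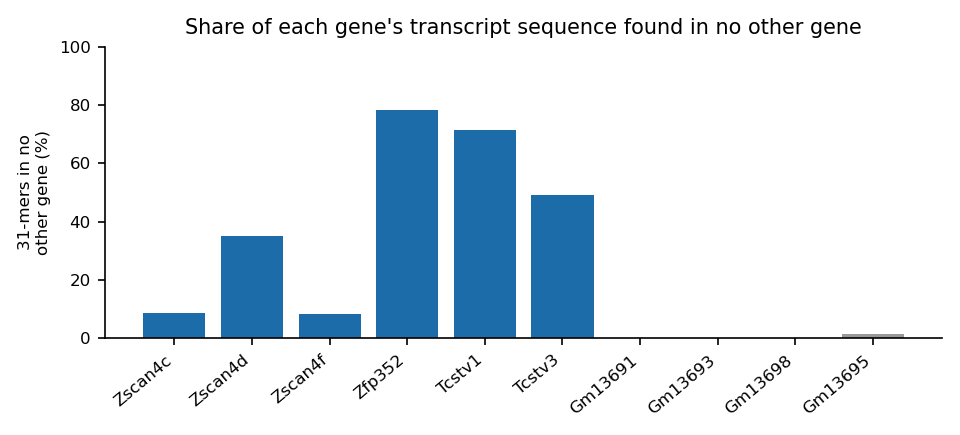
Share (%) of the distinct 31-base words of each gene's annotated transcripts that occur in no other gene, with Gm13695 in grey. Zfp352 reaches 78.5% and Zscan4c 8.46%, and the copies Gm13691, Gm13693 and Gm13698 have 0 such words.

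Totals ranged from 73933196 to 153343831 estimated counts per library. As a check of the labels, Srrm2 itself was below its control in each experiment, at 0.57, 0.31 and 0.44 of the Gl2-KD level at 24 h and at 0.48, 0.38 and 0.49 at 72 h. The log2 fold changes were -1.22 (SE 0.14) and -1.16 (SE 0.14), with adjusted p of 0.0663 and 0.0991 (edgeR, Benjamini-Hochberg), so that the target did not pass the threshold used for all genes in this fit. The study's own edgeR fit, with the RNA processing day as covariate, called Srrm2 lower at both times. The pluripotency genes Pou5f1, Sox2 and Nanog were at 1149 to 1956, 357 to 522 and 306 to 493 CPM (counts per 1000000, with TMM scaling) in the 12 libraries. The 12 markers of fibroblasts, endoderm, mesoderm, neural and trophoblast cells summed to 25.5 to 45.9 CPM, most of it Pax6 (6.89 to 34.6) and Thy1 (3.58 to 22.9). Which cells the Pax6 and Thy1 RNA came from was not tested. Cdx2 and Sox17 had at most 0.209 and 0.100 CPM.

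Zscan4f was the most abundant of the markers. With the Gl2 siRNA it was at 21.1, 15.3 and 4.53 CPM in experiments 1, 2 and 3 at 24 h and at 2.35, 2.58 and 1.60 CPM at 72 h. With the Srrm2 siRNA it was at 21.6, 18.7 and 5.28 CPM at 24 h and at 3.25, 6.27 and 4.21 CPM at 72 h. The levels were high in experiments 1 and 2 at 24 h and low in experiment 3 and at 72 h. The 2 siRNA groups overlapped at 24 h. At 72 h all Srrm2-KD libraries were above all Gl2-KD libraries, where 2.98% of all genes tested had such groups.

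Zscan4c was lower than Zscan4f in every library and was likewise high in experiments 1 and 2 at 24 h. Its 24 h libraries of Gl2-KD had 8.50, 8.31 and 1.64 CPM and those of 72 h 1.17, 1.01 and 1.02 CPM. The corresponding Srrm2-KD libraries had 8.08, 8.97 and 2.35 CPM, and 1.28, 3.30 and 1.25 CPM. The groups of 72 h did not overlap either, beside the same 2.98% of all genes tested. Only experiment 2 of Srrm2-KD stood clearly above Gl2-KD. For Zscan4d the Gl2-KD values were 5.05, 4.97 and 1.26 CPM at 24 h and 0.707, 0.691 and 0.548 CPM at 72 h. The Srrm2-KD values were 5.42, 6.11 and 1.68 CPM, then 1.11, 1.70 and 0.484 CPM. Here the siRNA groups overlapped at both times, with experiment 3 of Srrm2-KD at 72 h the lowest library of all.

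Summed over Zscan4b to Zscan4f, the family had 24.6 ± 14.9 CPM for Gl2-KD and 27.0 ± 15.03 CPM for Srrm2-KD at 24 h, and 4.04 ± 0.61 and 8.18 ± 3.72 CPM at 72 h (mean ± SD, n = 3 experiments). From high to low the order was Srrm2-KD 24 h, Gl2-KD 24 h, Srrm2-KD 72 h and Gl2-KD 72 h. The first 2 of these differed by less than the spread between experiments, which both groups share. Within experiments 1, 2 and 3, Srrm2-KD was at 1.03, 1.14 and 1.26 times Gl2-KD at 24 h. The mean of experiments 1 and 2 was 3.95 times that of experiment 3 at 24 h and 1.37 times at 72 h, both siRNAs averaged. What set experiment 3 apart at 24 h was not tested.

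Zfp352, which codes for a zinc finger protein of the 2-cell embryo, was lower still. In Gl2-KD it was at 0.469, 0.406 and 0.110 CPM at 24 h and at 0.130, 0.0364 and 0.0990 CPM at 72 h. In Srrm2-KD it was at 0.370, 0.531 and 0.222 CPM, then at 0.0934, 0.211 and 0.0409 CPM. It was thus highest in the same libraries of 24 h, and the siRNA groups overlapped at both times. These values rest on 3 to 66 counts per library.

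Tcstv1, a gene of a small family expressed in the 2-cell embryo, passed the filter on low counts through 3 libraries of 24 h alone, in which it had 11.1 to 15.7 counts. The Gl2-KD libraries had 0.0380, 0.0415 and 0.144 CPM at 24 h and 0.00870, 0.0371 and 0.0168 CPM at 72 h. The Srrm2-KD libraries had 0.0771, 0.0892 and 0.0126 CPM at 24 h, and at 72 h 0.00784 CPM in experiment 1 and 0 in the others. The highest library of Tcstv1 was experiment 3 of Gl2-KD at 24 h, where the Zscan4 genes were low. At 72 h all Srrm2-KD libraries were below all Gl2-KD libraries, on 0 to 1.26 counts in Srrm2-KD. The share of all genes lower in this way is not given here, and nothing is read from it. With so few counts the gene is at the limit of what these libraries show.

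Per copy, Gm13691 had 1.37, 0.776 and 0.283 CPM in the 24 h libraries of Gl2-KD and 0.131, 0.0643 and 0.0612 CPM in those of 72 h. For Srrm2-KD the values were 1.30, 0.988 and 0.328 CPM, then 0.227, 0.247 and 0.127 CPM. The rows of Gm13694, Gm13696 and Gm13697 held these values too, which makes 6 rows with the same values. The row of Gm13695 had below 0.001 counts in 9 libraries and was equal to that of Gm13691 in the other 3, within 0.001 counts: Gl2-KD 72 h experiment 1 (16.03 counts), Srrm2-KD 72 h experiment 2 (18.7) and experiment 3 (9.29). In these 3 libraries the reads of the repeat were spread over 7 rows in place of 6, which lowers the value of a single copy there.

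The sum over the 7 copies has no such step. With the Gl2 siRNA the sum was 8.25, 4.65 and 1.70 CPM at 24 h and 0.915, 0.386 and 0.367 CPM at 72 h. With the Srrm2 siRNA it was 7.81, 5.93 and 1.97 CPM, then 1.36, 1.73 and 0.887 CPM. The copies were thus high in the libraries in which the Zscan4 genes were high, and at 72 h the lowest Srrm2-KD library was just below the highest Gl2-KD library. Cwc22, with which they share sequence, was at 81.3 to 135 CPM, with log2 fold changes of -0.03 (SE 0.13) from 24 h to 72 h in Gl2-KD and 0.16 (SE 0.13) between the siRNAs at 72 h.

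**Figure D2:**
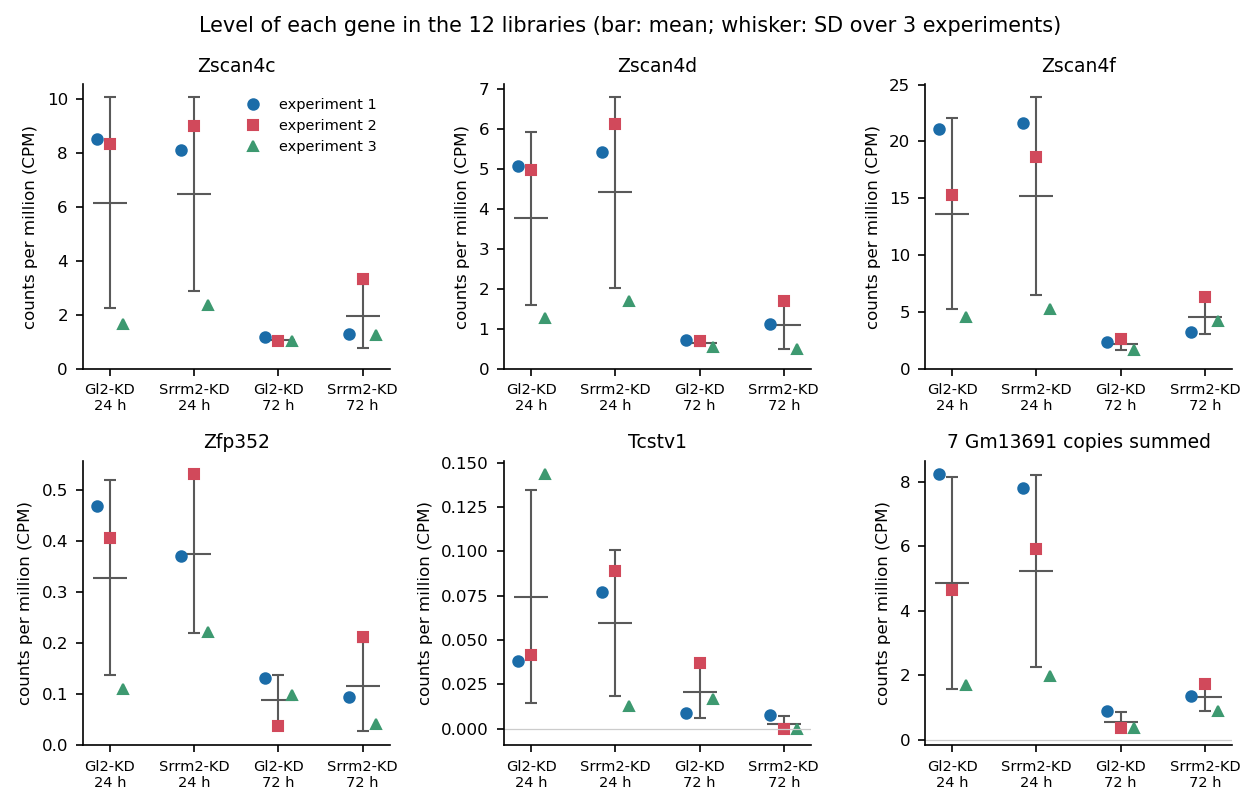
Level (CPM) in each of the 12 libraries for 5 markers of the 2-cell-like state and for the sum of the 7 Gm13691 copies, by group, with the experiment given by colour and shape. Horizontal bars are means and whiskers SD over 3 experiments. Apart from Tcstv1, the levels were high at 24 h in experiments 1 and 2 and low in experiment 3 and at 72 h.

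Between genes, levels were compared per kb of the longest annotated transcript. In Gl2-KD at 24 h the mean level was 7.47 CPM per kb for Zscan4f, 2.70 for Zscan4c, 1.65 for Zscan4d, 0.325 for a single Gm13691 copy, 0.144 for Zfp352 and 0.0582 for Tcstv1. In Srrm2-KD at 72 h the order of the first 5 was the same, at 2.50, 0.853, 0.483, 0.0803 and 0.0506 CPM per kb. Zscan4c was above Zscan4d in every library, but the division of shared reads among the Zscan4 rows bears on their order. The value of a single Gm13691 copy is an equal share of reads spread over 6 or 7 rows, so its place in the order depends on that division too.

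From 24 h to 72 h all 6 rows had fitted log2 fold changes below 0, beside 47.7% of all genes tested in Gl2-KD and 49.9% in Srrm2-KD. The values are given as a description, since the genes were picked with these results known. In Gl2-KD the log2 fold change was -2.20 (SE 0.46) for Zscan4c, -2.27 (SE 0.34) for Zscan4d, -2.47 (SE 0.41) for Zscan4f and -1.62 (SE 0.63) for Zfp352. Gm13691 had the largest difference of the 6 rows, -3.10 (SE 0.41). In Srrm2-KD the values were -1.65 (SE 0.45) for Zscan4c, -1.98 (SE 0.33) for Zscan4d and -1.49 (SE 0.41) for Zscan4f. Zfp352 had -1.78 (SE 0.62) and Gm13691 -2.02 (SE 0.38). For Tcstv1 the values were -1.84 (SE 1.05) in Gl2-KD and -3.87 (SE 1.38) in Srrm2-KD, on very few counts. With a library or an experiment left out they ranged from -2.58 to -0.42 and from -6.04 to -3.07. Without experiment 3 as a whole, Zscan4c had -2.95 and Zfp352 -2.37 in Gl2-KD, and Zscan4f -2.11 in Srrm2-KD. Zfp352 had -0.97 in Gl2-KD without Gl2-KD 72 h experiment 2 and -2.25 without Gl2-KD 72 h experiment 3, and -2.41 in Srrm2-KD without Srrm2-KD 72 h experiment 2. For all 6 rows, 72 h was below 24 h in every experiment with both siRNAs, for Tcstv1 on very few counts. Tcstv1 passed the filter on low counts through 24 h libraries alone. It tends to be lower at 72 h by that choice, so nothing is read from its direction. In experiment 3, where 24 h was low, the level of the Zscan4 sum at 72 h was 0.44 times that of 24 h in Gl2-KD and 0.67 times in Srrm2-KD, against 0.12 and 0.15 in experiment 1.

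At an adjusted p below 0.05, 4 of the 6 rows were called lower at 72 h in Gl2-KD (Zscan4c, Zscan4d, Zscan4f and Gm13691), where 1.45% of all 19410 genes tested were called in either direction and 0.706% as lower. In Srrm2-KD 2 of the 6 were called (Zscan4d and Gm13691), where 0.551% of all genes were called and 0.361% as lower. The choice of genes used these contrasts, so that nothing is read from these counts. None of the 6 was called in Gl2-KD without Gl2-KD 24 h experiment 1 or 2, without Gl2-KD 72 h experiment 2 or without experiment 2 as a whole. In these 4 settings 0 to 3 genes of the whole table were called. In Srrm2-KD, 12 of the 15 settings that leave out a library or an experiment called none of the 6. As sums, the Zscan4 rows had -2.37 (SE 0.40) in Gl2-KD and -1.54 (SE 0.39) in Srrm2-KD, and the 7 copies had -2.99 (SE 0.36) and -1.80 (SE 0.34). Both sums were called in Gl2-KD and neither in Srrm2-KD. DESeq2 and limma-voom called Zscan4c, Zscan4d, Zscan4f and Gm13691 with both siRNAs, where DESeq2 called 6.89% of all genes in Gl2-KD and 5.47% in Srrm2-KD, and limma-voom 2.48% and 1.33%.

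**Figure D3:**
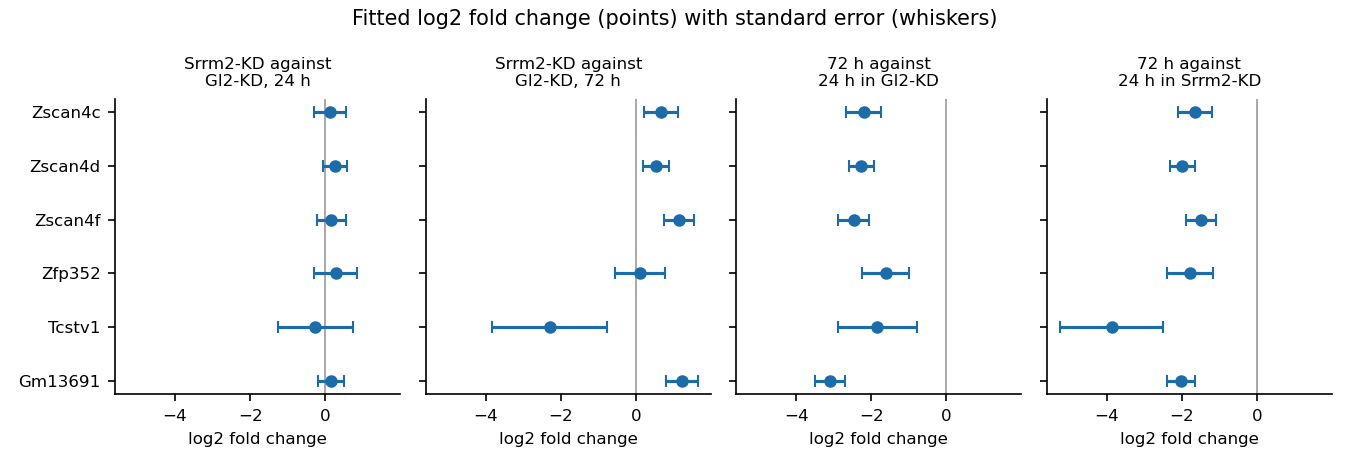
Fitted log2 fold change (points) and its standard error (whiskers) of 6 rows in 4 comparisons. All 6 lie below 0 for 72 h against 24 h, between -1.62 and -3.10 in Gl2-KD, where 47.7% of all genes tested were below 0. Tcstv1 passed the filter through 24 h libraries alone. The siRNA comparison at 24 h lies between -0.27 and 0.28.

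Between the siRNAs at 24 h the fitted differences were small. The log2 fold changes of Srrm2-KD against Gl2-KD were 0.12 (SE 0.43) for Zscan4c, 0.25 (SE 0.31) for Zscan4d, 0.16 (SE 0.38) for Zscan4f, 0.28 (SE 0.57) for Zfp352 and 0.15 (SE 0.35) for Gm13691. Each was below its standard error. Zscan4d and Zscan4f were higher in Srrm2-KD in 3 of 3 experiments, as was the sum of the Zscan4 rows. Zscan4c, Zfp352 and Gm13691 were higher in 2 of 3. Without Gl2-KD 24 h experiment 3, Zscan4c moved to -0.24, Zscan4f to -0.13, Zfp352 to -0.05 and Gm13691 to -0.04.

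At 72 h the Srrm2-KD libraries were higher on the fitted scale for Zscan4f, with 1.14 (SE 0.40), and for Gm13691, with 1.23 (SE 0.42). Both were higher in 3 of 3 experiments, as Zscan4f was at 24 h too. The Gm13691 copies stand in a list of genes at 72 h that the study made from these libraries. The values at 72 h are therefore a description, and nothing is read from their direction. For Zscan4f the Srrm2-KD level was 1.38, 2.44 and 2.63 times that of Gl2-KD, and for the sum of the 7 copies 1.49, 4.48 and 2.41 times. Zscan4c had 0.68 (SE 0.45) and Zscan4d 0.54 (SE 0.33), the latter higher in 2 of 3 experiments. Zfp352 had 0.12 (SE 0.67) and was higher in experiment 2 alone, at 5.80 times, on 16 counts against 4.75. The sum of the Zscan4 rows had 0.98 (SE 0.39) and that of the 7 copies 1.34 (SE 0.35). Without Srrm2-KD 72 h experiment 3, Zscan4f had 0.59, and without experiment 2 as a whole Zscan4c had 0.20 and Zfp352 -0.88. Tcstv1 had -2.29 (SE 1.53), a value that depends on the prior count, since it had 0 counts in 2 of the 3 Srrm2-KD libraries.

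None of the 6 rows was called in the siRNA comparison at either time by edgeR, DESeq2 or limma-voom, where edgeR called 0% of all genes and had 508 genes at 24 h and 2498 at 72 h with an unadjusted p below 0.05. DESeq2 called 0.129% and 2.79% of all genes at the 2 times, and limma-voom 0.0103% and 0.0206%. The study's edgeR fit, with another covariate, called Srrm2 alone at 24 h and Srrm2 with other genes at 72 h. The difference between the siRNA comparisons at 72 h and 24 h was 0.98 (SE 0.55) for Zscan4f and 1.08 (SE 0.54) for Gm13691 and was called for none of the 6 by edgeR, which called 0% of all genes and had 319 with an unadjusted p below 0.05, nor by DESeq2, which called 0.0103% of all genes. The comparisons share libraries: Gl2-KD at 72 h enters both the siRNA comparison at 72 h and the time comparison in Gl2-KD, and its low values act on each of them.

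**Figure D4:**
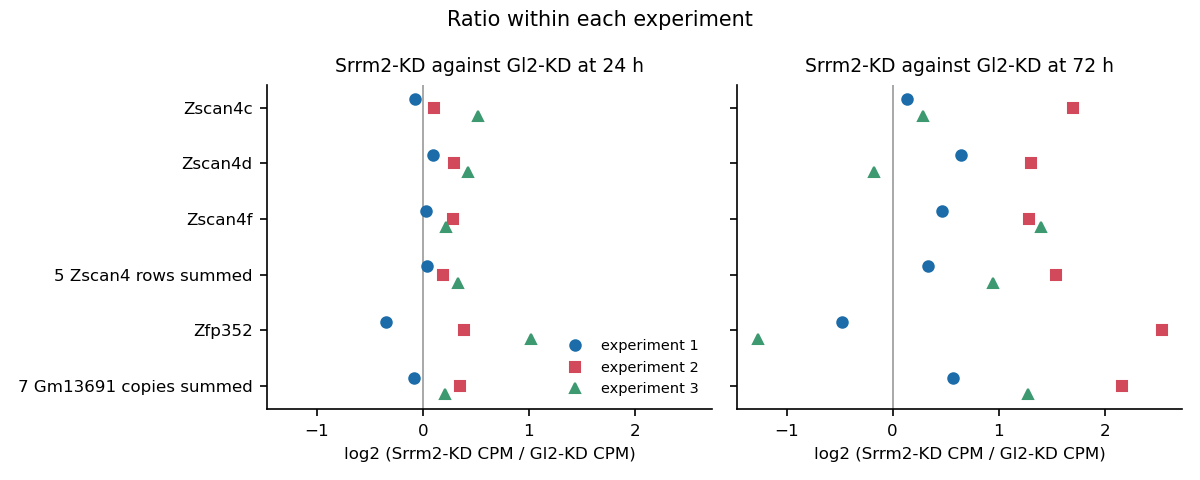
log2 ratio of the Srrm2-KD to the Gl2-KD level (CPM) within each experiment at 24 h and at 72 h. At 72 h the sums of the Zscan4 rows and of the 7 Gm13691 copies lie above 0 in all 3 experiments, and experiment 2 has the highest ratio of both. The Zscan4 sum lies above 0 in all 3 experiments at 24 h as well.

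A wider list of 55 genes known from the 2-cell-like state, among them Usp17l and Trim43 genes, Tdpoz genes and Duxf3, had 42 genes in the table and 34 that were tested. From 24 h to 72 h in Gl2-KD 7 of the 34 fell and 0 rose, where 0.706% of all genes tested were called lower. Their median log2 fold change was -1.72, against 0.02 over all genes tested, and 32 of 34 were below 0, as were 47.7% of all genes tested. In Srrm2-KD 1 fell and 0 rose, where 0.361% of all genes were called lower. The median was -1.25 against 0.00 over all genes, and 31 of 34 were below 0, beside 49.9% of all genes. The 7 were Usp17lc (-2.57), which codes for a deubiquitinase, Arg2 (-2.21), which codes for the mitochondrial arginase, and the predicted genes Gm2016 (-2.43), Gm5662 (-2.52), Gm6763 (-2.73), Gm10696 (-2.82) and Gm21761 (-2.17). Gm5662 was the gene that also fell in Srrm2-KD (-1.79). Many of these genes belong to families of near-identical copies, and their rows are uncertain in the way of the Zscan4 rows. Zscan4b and Zscan4e are among the 34. A row that passes the filter on low counts through its 24 h libraries tends to be lower at 72 h by that choice. Zscan4b did so, with 118, 166 and 29.95 counts in Gl2-KD at 24 h and 32.0, 0 and 0 at 72 h. How many others did was not worked out, so nothing is read from the list's counts and medians over time.

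Values of a pair of them are given by library. Gm6763 had 9.43, 11.9 and 2.78 CPM in Gl2-KD libraries of 24 h and 1.02, 1.204 and 0.919 CPM in those of 72 h. For Srrm2-KD these were 9.38, 12.2 and 2.75 CPM, then 1.46, 3.00 and 1.98 CPM. At 24 h experiments 1 and 2 were above experiment 3, with experiment 2 the highest, while Zscan4f was highest in experiment 1. Arg2, which has no close copy among the genes listed, was at 0.491, 0.770 and 0.201 CPM in Gl2-KD at 24 h and at 0.122, 0.0920 and 0.0685 CPM at 72 h. In Srrm2-KD it was at 0.468, 0.765 and 0.222 CPM at 24 h and at 0.143, 0.317 and 0.205 CPM at 72 h.

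In the siRNA comparison 0 of the 34 were called at 24 h and at 72 h, by edgeR, DESeq2 and limma-voom, and in edgeR 0 at 24 h and 13 at 72 h, all higher in Srrm2-KD, had an unadjusted p below 0.05. The counts of all genes at that unadjusted p are given with the 6 rows above. The median of the list was 0.22 on the log2 scale at 24 h, with 27 of 34 above 0. At 72 h it was 0.81, with 28 of 34 above 0. Over all genes tested the medians were 0.01 and -0.02, with 51.3% above 0 at 24 h and 47.9% at 72 h. The levels of the 2 groups did not overlap, with Srrm2-KD the higher, for 1 of the 34 at 24 h and for 13 at 72 h, where 1.92% and 2.98% of all genes tested had such groups. For 72 h against 24 h the lower group did not overlap the higher for 18 of the 34 in Gl2-KD and 9 in Srrm2-KD, beside 3.34% and 3.92% of all genes. Rows that passed the filter through 24 h libraries, such as Zscan4b, enter these counts with both siRNAs, so nothing is read from them. The values of these genes come from the same libraries and are not independent of each other. Without Gl2-KD 24 h experiment 1 or 2, Gl2-KD 72 h experiment 2 or experiment 2 as a whole, 0 of the list were called from 24 h to 72 h in Gl2-KD.

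**Figure D5:**
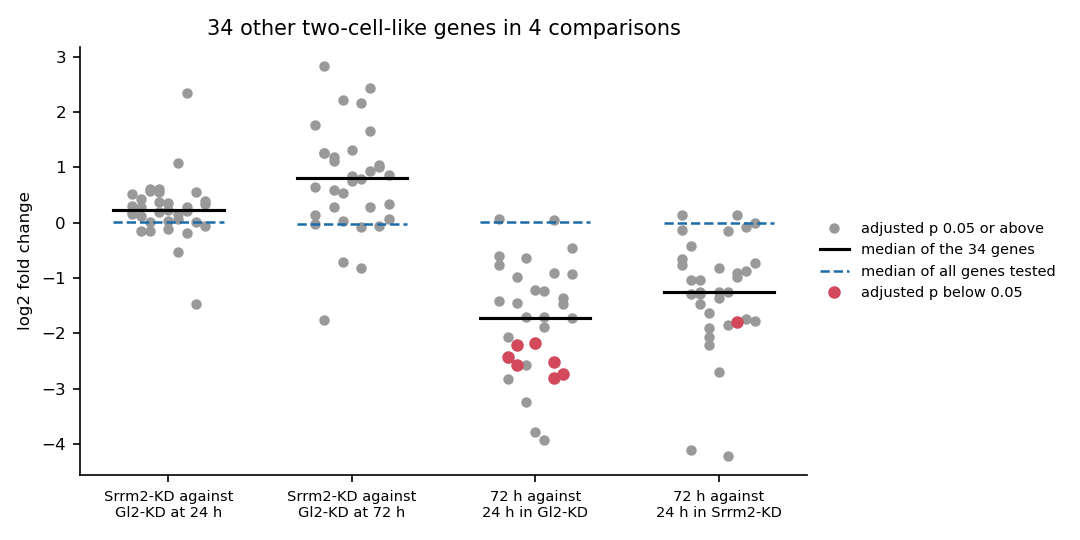
log2 fold change of the 34 tested genes of the wider list of the 2-cell-like state in 4 comparisons. Red points passed an adjusted p below 0.05, solid bars are the median of the list and dashed bars that of all genes tested. The list's median is -1.72 for 72 h against 24 h in Gl2-KD and 0.81 for Srrm2-KD against Gl2-KD at 72 h.

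Of 5 genes known to activate the state, 0 were called by edgeR in any comparison. At an unadjusted p below 0.05 were 2 in the siRNA comparison at 72 h, 1 of them higher, and 2 from 24 h to 72 h in Gl2-KD, 1 of them higher. The share of all genes at that unadjusted p is not given here for the time comparison, so nothing is read from these counts. DESeq2 called 1 as lower in each of these 2 comparisons, where it called 2.79% and 6.89% of all genes in either direction. Which of the 5 genes these were is not given here. The activators with values below are those of the highest mean level. Their median log2 fold change from 24 h to 72 h was -0.08 in Gl2-KD and -0.03 in Srrm2-KD. Dppa2 and Dppa4, which act before Dux, were at 48.4 to 136 and 139 to 260 CPM, and Nelfa at 80.9 to 106 CPM. Dppa2 was lower at 72 h in 3 of 3 experiments with each siRNA, at 0.95, 0.70 and 0.63 of its 24 h level in Gl2-KD. Dppa4 was at 1.15, 0.98 and 0.72 there and Nelfa at 1.10, 0.94 and 0.82. In Srrm2-KD at 72 h Dppa2 was at 1.11, 1.46 and 1.42 times its Gl2-KD level, Dppa4 at 0.99, 1.24 and 1.24 and Nelfa at 1.03, 0.99 and 1.21. Of 28 repressors of the state, Myc alone was called by edgeR, lower at 72 h in Gl2-KD, with a log2 fold change of -1.73 (edgeR, Benjamini-Hochberg adjusted p = 0.0144), where 0.706% of all genes were called lower. From 24 h to 72 h, 7 of the 28 in Gl2-KD and 13 in Srrm2-KD had an unadjusted p below 0.05 in edgeR, all of them lower at 72 h. The share of all genes at that unadjusted p is not given here, so nothing is read from the 7 and 13. With each siRNA 22 of the 28 were fitted below 0, beside 47.7% of all genes tested in Gl2-KD and 49.9% in Srrm2-KD. Myc, a transcription factor that drives growth, was at 49.6, 48.0 and 25.7 CPM in Gl2-KD at 24 h and at 25.0, 11.98 and 5.10 CPM at 72 h. In Srrm2-KD its log2 fold change was -1.18 (adjusted p = 0.0646). DESeq2 called 4 of the 28 in Gl2-KD and 2 in Srrm2-KD, all lower, beside 6.89% and 5.47% of all genes in either direction. The median over the 28 was -0.12 in Gl2-KD and -0.18 in Srrm2-KD.

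Likeness of pattern was taken as Pearson's r of log2(CPM + 0.1) over the 12 libraries, which share depth, experiment and time, and is given as a description. With the mean of the 5 tested markers, Gm13691 had r = 0.975, and r = 0.996 after the mean of each experiment was removed. Tcstv1, which is part of that mean, had 0.51. Outside the genes named so far, the highest values were those of the predicted genes Gm8764 (0.98), Gm8332 (0.98), Gm20765 and Gm21312 (both 0.97) and of Sftpd (0.97), which codes for surfactant protein D. Gm8764 held the values of Gm6763 in every library, and Gm20765 those of Gm21312. With Gm13691 itself, Zscan4f had 0.971, Zscan4d 0.967 and Zscan4c 0.955. Outside the members, the other copies and the list genes named above, the highest were Cited2 (0.962), a transcriptional co-regulator, Gm11218 (0.95), Usp17ld (0.95), Gm8764 (0.95) and Foxd3 (0.95). Foxd3 codes for a transcription factor of pluripotent cells. After the mean of each experiment was removed, Cited2 had 0.959, Zscan4d 0.988 and Gm8764 0.991. Cited2 and Foxd3 are far more abundant, at 11.8 to 33.3 and 10.7 to 48.4 CPM.

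Within 500 kb of the tandem copies the table lists 15 other genes, of which 6 were tested: Zc3h15, Itgav, Gm13684, Fam171b, Calcrl and Tfpi. None was called by edgeR in the siRNA or time comparisons, and 1 had an unadjusted p below 0.05 in the siRNA comparison at 72 h and 1 from 24 h to 72 h in Gl2-KD. From 24 h to 72 h in Gl2-KD they had log2 fold changes of -0.60 to 0.30, beside -3.10 for Gm13691, and between the siRNAs at 72 h of -0.51 to 1.14. The value of 1.14 is that of Gm13684, a noncoding transcript at 0.0229 to 0.244 CPM.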

How the data were processed

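PolyA+ RNA of 12 libraries was quantified by the authors with Kallisto 0.46.1 against GENCODE M24 transcripts (mm10 per the labels), and they deposited 1 estimated count per gene and library, not scaled for library size. They were rounded here and fitted with edgeR 4.0.16 (R 4.3.3). Genes had to pass filterByExpr (10 counts, 15 in total, 4 groups), and 19410 did. The model held the 4 groups and, as a block, the experiment, over all 12 libraries with TMM factors, and used glmQLFit (legacy=TRUE) and glmQLFTest. The threshold was an adjusted p (Benjamini-Hochberg) below 0.05. The study's covariate, the RNA processing day, per library is not given in the sources read, so the experiment number took its place. Around their group means, the 18 library pairs of 1 experiment correlated at 0.509 to 0.899 across genes and 36 other pairs at -0.771 to 0.408, so the numbers pair the libraries, which are from independent experiments by the study's methods.

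Of 42450 identifiers, 42156 matched GENCODE M21 symbols and positions (GRCm38), and the 294 others held 0.175% of counts. The 31-base words were counted over M21 transcripts, which are not the release used for the counts. Rows that held the same values counted once. DESeq2 1.42.0, limma 3.58.1 with voom, other scalings, filters, no block, single time points and leaving out libraries or experiments were the alternatives. Genes named are all members, called genes of the lists, rows equal to a member, 5 genes of most like pattern for each of 2 references and genes within 500 kb of the copies. Members and lists were chosen with earlier results of these data known. The Gm13691 copies stand in a list of genes at 72 h that the study made from these libraries.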

Additional observations from a re-analysis of the deposited data

How the results depend on the processing

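From 24 h to 72 h in Gl2-KD, 282 genes were called as reported, 1338 with DESeq2, 482 with limma-voom, 624 with legacy=FALSE, 476 where each library had to reach 10 counts, and 0 to 387 with a library or an experiment left out. In Srrm2-KD the counts were 107 as reported, 1061, 259, 279, 176 and 0 to 135, and 212 with no filter. For the siRNA comparison at 72 h, DESeq2 called 542 genes, limma-voom 4, legacy=FALSE 5, no filter 42, the minimum of 10 counts per library 1, the 72 h libraries alone 323 and a left-out library or experiment 0 to 55. At 24 h these were 25, 2, 1, 1 and 1, and 0 to 10 with a left-out library or experiment. The difference between the siRNA comparisons had 2 with DESeq2, 1 with no filter and 0 to 2 with a left-out library. Without the replicate block, 0 genes were called in each time comparison, the 6 rows included. The causes were not tested.

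The 6 rows were called in no setting of the siRNA comparisons. Of 771 values of single genes under other settings, 23 changed sign, none of them a called value. Depth limits Tcstv1 and Tcstv3, and single Zscan4 rows depend on how shared reads were divided. The Zscan4 sum at 24 h differed 3.95-fold between experiments 1 and 2 and experiment 3.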

Other observations

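Zscan4b and Zscan4e, the other copies of the cluster with a row, had values that came and went between libraries. In Gl2-KD at 24 h Zscan4b was at 118, 166 and 29.95 estimated counts and Zscan4e at 0, 36.9 and 0. In Srrm2-KD at 72 h Zscan4b was at 0.0105, 0 and 7.96 counts and Zscan4e at 0, 89.2 and 29.1. They share 1633 of their 31-base words, 90.6% of those of Zscan4b and 91.1% of those of Zscan4e, so that their single rows are uncertain. Both enter the sum of the Zscan4 rows, and both are among the 34 tested genes of the wider list. The most Zscan4e counts, 97.9, were in experiment 1 of Srrm2-KD at 24 h.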
